A study of Homo sapiens with 6 samples.

Results

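The genes described are 48 genes of S phase: regulators of the step from G1 into S phase, the proteins that license and fire replication origins, the replication fork, the enzymes that supply deoxynucleotides, and the factors that package new DNA. They were chosen by symbol, from a list of names grouped by role, and all 48 were found among the 60643 genes of the table. Expression was measured by RNA sequencing of HCT116, an established human colorectal cancer cell line, in 2 groups of 3 libraries. The +Dox libraries came from cells carrying a doxycycline-inducible short hairpin RNA against CAPG (labelled CAPG Knockdown, and shCAPG-2 for the hairpin) that had been given doxycycline for 3 days at 100 ng/µl, the unit as labelled. The −Dox libraries (labelled WT) came from untreated cells with the same inducible hairpin construct. No library with the drug but without the hairpin was analysed here, and the effects of drug and hairpin cannot be told apart. The labels do not say that the replicates were separate cultures, and p-values here measure library-to-library spread, possibly technical only.

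A cell commits to S phase when cyclin E with the kinase CDK2, and the E2F transcription factors released from the retinoblastoma proteins, switch on the genes for DNA synthesis. Before that, in G1, the origin recognition complex, CDC6 and CDT1 load the MCM helicase rings onto DNA (licensing), and geminin later blocks CDT1 so that each origin fires once per cycle. CDC45 and the GINS complex then activate the loaded helicase, polymerases copy the DNA on a sliding clamp of PCNA, ribonucleotide reductase and thymidylate synthase supply the building blocks, and the CAF-1 complex assembles nucleosomes behind the fork.

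CAPG, the target of the hairpin and an actin filament capping protein, had 8.18, 8.03 and 9.97 FPKM in +Dox replicates 1, 2 and 3, against 61.1, 56.9 and 53.7 FPKM in −Dox replicates 1, 2 and 3 (FPKM, fragments scaled by transcript length and by the fragments of the library). The groups did not overlap, and 15.3% of the −Dox level was left (log2 change −2.59, SE 0.10, limma adjusted p = 7.24e-06; exact permutation test, two-sided, p = 0.1, the smallest that 3 against 3 libraries allow). Estimated depth lay between 21500000 and 21800000 fragments in +Dox libraries, and between 17000000 and 21800000 in −Dox libraries, where 1 library stood at the low end. FPKM values summed to 586911 in +Dox replicate 3 and to between 521832 and 536037 in the other 5 libraries, and that library also stood apart from the other +Dox libraries on the second principal component (−17.19 against 12.24 and 13.05, 21% of the variance). Of 10 colon epithelial markers 6 reached 1 FPKM in at least 3 libraries, up to 802 FPKM for the keratin gene KRT8, and CDX1 was listed at 0 in all 6 libraries. The changes of those 6 were all positive (median log2 0.20). EPCAM, KRT8, KRT18 and CDX2 had +Dox values all above their −Dox values (66.7% of the 6, against 17.0% of all 14475 genes tested). In KRT8 the groups nearly touched (680.797 against 680.782 FPKM). +Dox replicate 3 was the highest +Dox library in 4 of the 6 (66.7%, against 46.3% of all genes tested). EPCAM was called higher (241 ± 20.0 FPKM in +Dox and 190.1 ± 8.12 FPKM in −Dox libraries; log2 0.34, limma adjusted p = 0.0401), a call kept by 1 of the 6 fits that each left out a library, that without +Dox replicate 3 (up to 0.139 in the others). The 10 epithelial genes summed to between 1868 and 2202 FPKM in +Dox libraries and between 1659 and 1861 FPKM in −Dox libraries. Of the markers of other cell types, CD68 (up to 4.48 FPKM) among 5 leukocyte genes and COL1A1 (up to 10.9 FPKM) among 5 fibroblast genes reached 1 FPKM in at least 3 libraries, none of 4 endothelial genes exceeded 0.425 FPKM, and CD3E, COL1A2 and DCN were listed at 0 throughout. CD68 itself was lower in +Dox libraries (2.01 ± 0.380 FPKM, against 3.94 ± 0.476 FPKM in −Dox libraries; log2 −0.72, adjusted p = 0.0167, and 0.0535 and 0.0762 without +Dox replicate 2 and −Dox replicate 2). The 5 leukocyte genes summed to between 2.17 and 2.71 FPKM in +Dox libraries and between 4.32 and 4.96 FPKM in −Dox libraries, and the part of either marker group in the results was not tested.

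With doxycycline, 7 of the 48 genes fell and 0 rose. The 7 were the cyclin E genes CCNE1 and CCNE2, their kinase partner CDK2, the transcription factor gene E2F2, the licensing factor CDT1, its inhibitor GMNN (geminin) and the uracil glycosylase UNG. They had between 60.8% and 75.0% of their −Dox mean. All 48 genes were above the filter on low values, the lowest value being 4.92 FPKM for E2F2. Called means a limma adjusted p under 0.05 over all 14475 genes tested on log2(FPKM + 1), a scale on which log2 changes of low genes are understated. On that scale 14.6% of the 48 genes were called lower, against 4.77% of all tested genes, and none was called higher, against 3.69% of all tested genes. At an unadjusted p under 0.05, 13 of the 48 were lower and 1 higher, against 2073 lower and 1963 higher among all tested genes.

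The values of most of the 48 genes overlapped between the groups. In 16 of them (33.3%) the +Dox values all lay under the −Dox values, against 17.5% of all tested genes, and in 2 (MCM5 and GINS1) they all lay over them, against 17.0% of all tested genes. The median log2 change of the 48 genes was −0.13, from −0.62 (CCNE2) to 0.26 (MCM5), with 37 negative and 11 positive, and the median of all tested genes was 0.00. Summed FPKM of the 48 genes was 2072, 2094 and 2262 in +Dox replicates 1, 2 and 3, against 2317, 2298 and 2231 in −Dox replicates 1, 2 and 3, so that +Dox replicate 3 lay within the −Dox range. Without +Dox replicate 3 the calls were again these 7. Leaving out −Dox replicate 2 left 2 of them, CCNE2 and CDT1, and each of the other 4 leave-out fits called 4 or 5 of the 48 genes. Without the filter on low values, with 32367 genes tested, 2 of the 7 stayed called (E2F2 and UNG), and CCNE1, CCNE2, CDK2, CDT1 and GMNN had adjusted p-values of 0.143, 0.0616, 0.0959, 0.0562 and 0.101.

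**Figure D1:**
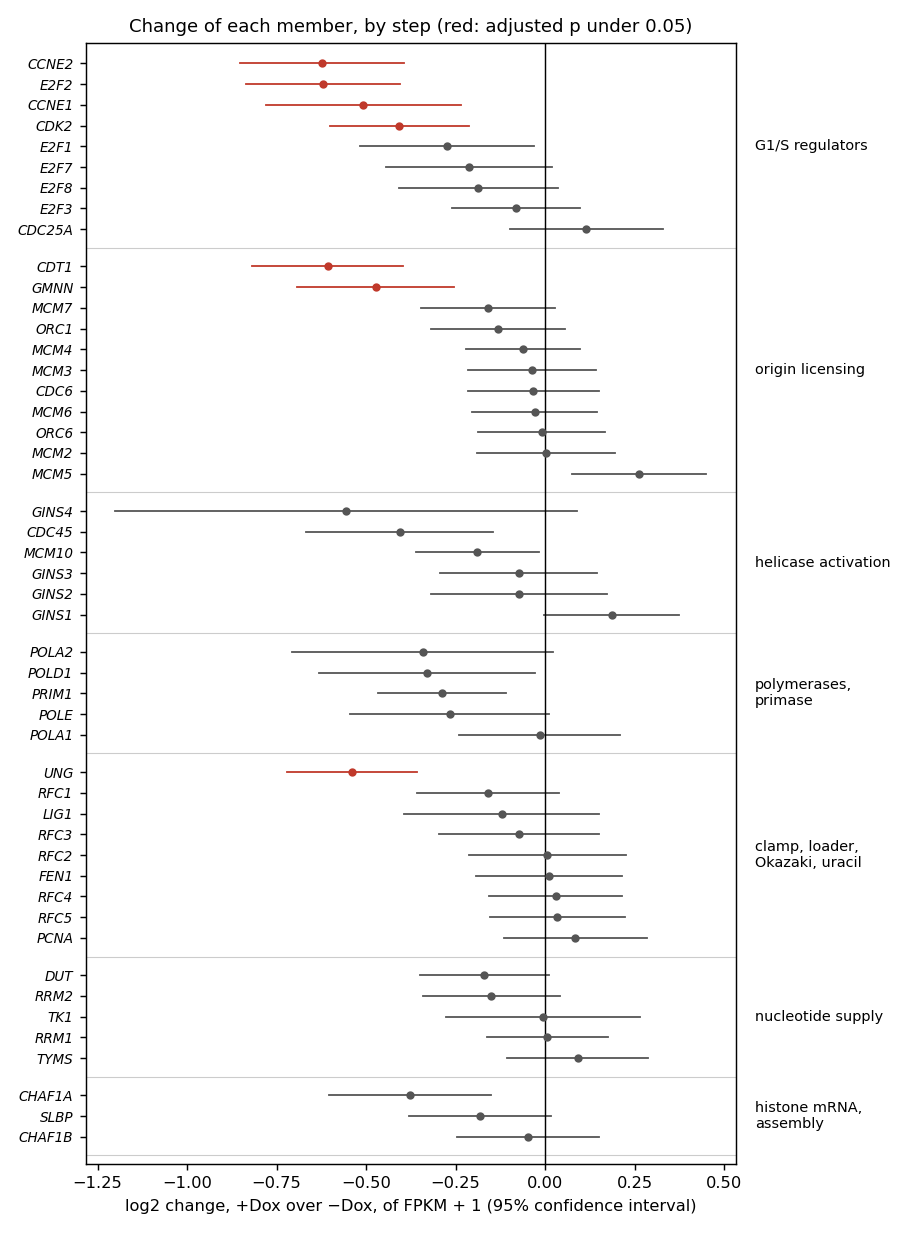
Log2 change of FPKM + 1 (horizontal axis, +Dox over −Dox, n = 3 each) of the 48 genes grouped by step, as points with 95% confidence intervals from limma, red where the adjusted p was under 0.05. The 7 red points lie between −0.62 and −0.41, with 4 among the G1/S regulators, 2 among the licensing genes and 1 (UNG) in the clamp and Okazaki group.

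The regulators of entry into S phase held most of the calls. Of 9 such regulators 4 fell (44.4%), 0 rose, and 7 (77.8%) had all +Dox values under all −Dox values. Of all 14475 tested genes 4.77% were called lower and 3.69% higher, and 17.5% had all +Dox values under all −Dox values. CCNE1 (ENSG00000105173, chromosome 19, 29811991 to 29824312, plus strand, GRCh38) had 10.9, 10.3 and 14.1 FPKM in +Dox replicates 1, 2 and 3, against 18.4, 16.0 and 16.6 FPKM in −Dox replicates 1, 2 and 3. All +Dox libraries were lower, with replicate 3 the closest to the −Dox group (means 11.8 ± 2.05 and 17.0 ± 1.24 FPKM, SD, n = 3 each; log2 −0.51, SE 0.12, limma adjusted p = 0.0353). CCNE2 (ENSG00000175305, chromosome 8, 94879770 to 94896678, minus strand), which encodes the other E-type cyclin, had 9.28, 7.53 and 8.62 FPKM in +Dox libraries, against 14.4, 12.7 and 13.6 FPKM in −Dox libraries. Its groups were separated by more than the range of either (log2 −0.62, SE 0.10, adjusted p = 0.0108). Part of the CCNE2 value is uncertain, since 37.0% of its exonic bases overlap INTS8 on the opposite strand, a gene with 50.6 ± 5.92 FPKM in +Dox and 52.6 ± 1.80 FPKM in −Dox libraries (log2 −0.06, adjusted p = 0.721), and no source used here says whether counting used strand.

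CDK2 (ENSG00000123374, chromosome 12, 55966781 to 55972789, plus strand), the kinase that cyclin E activates, had 55.4, 54.7 and 60.3 FPKM in +Dox libraries, against 82.4, 69.7 and 75.3 FPKM in −Dox libraries. Its +Dox libraries all stayed under the lowest −Dox library (log2 −0.41, SE 0.09, limma adjusted p = 0.0249). CDC25A, the phosphatase that removes the inhibitory phosphates from CDK2, had 9.90, 10.1 and 11.1 FPKM in +Dox libraries and 9.57, 8.81 and 10.1 FPKM in −Dox libraries. Its groups overlapped and its log2 change of 0.12 had a 95% interval from −0.10 to 0.33 (adjusted p = 0.468). The CCNE1 call was lost without any library other than +Dox replicate 3 (adjusted p 0.0902 and 0.107 without +Dox replicates 1 and 2, and 0.0994, 0.0918 and 0.0772 without −Dox replicates 1, 2 and 3), and so was that of CDK2 (0.0686 and 0.0858, and 0.0708, 0.0662 and 0.0596).

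Among the E2F genes, 1 of 5 passed the test. E2F2 (ENSG00000007968, chromosome 1, 23506438 to 23531233, minus strand), an activating E2F, had 4.92, 5.00 and 5.28 FPKM in +Dox libraries, against 8.58, 8.70 and 7.72 FPKM in −Dox libraries. The +Dox values lay close together and far under the −Dox values (5.07 ± 0.19 and 8.34 ± 0.535 FPKM; log2 −0.62, SE 0.10, limma adjusted p = 0.00786, and 0.0510 without −Dox replicate 2). E2F1, another activating E2F, had 6.38, 7.03 and 8.16 FPKM in +Dox libraries and 9.33, 9.01 and 8.29 FPKM in −Dox libraries. The groups did not overlap but nearly touched, and the gene did not pass (log2 −0.27, 95% interval −0.52 to −0.03, adjusted p = 0.135). The remaining activator E2F3 (14.3 ± 0.154 and 15.2 ± 0.155 FPKM in +Dox and −Dox libraries) and the repressors E2F7 (6.41 ± 0.555 and 7.58 ± 0.544) and E2F8 (8.85 ± 0.378 and 10.2 ± 0.985) did not pass either, with log2 changes of −0.08, −0.21 and −0.19. E2F3 and E2F7 had groups without overlap, and E2F8 overlapped through −Dox replicate 3.

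**Figure D2:**
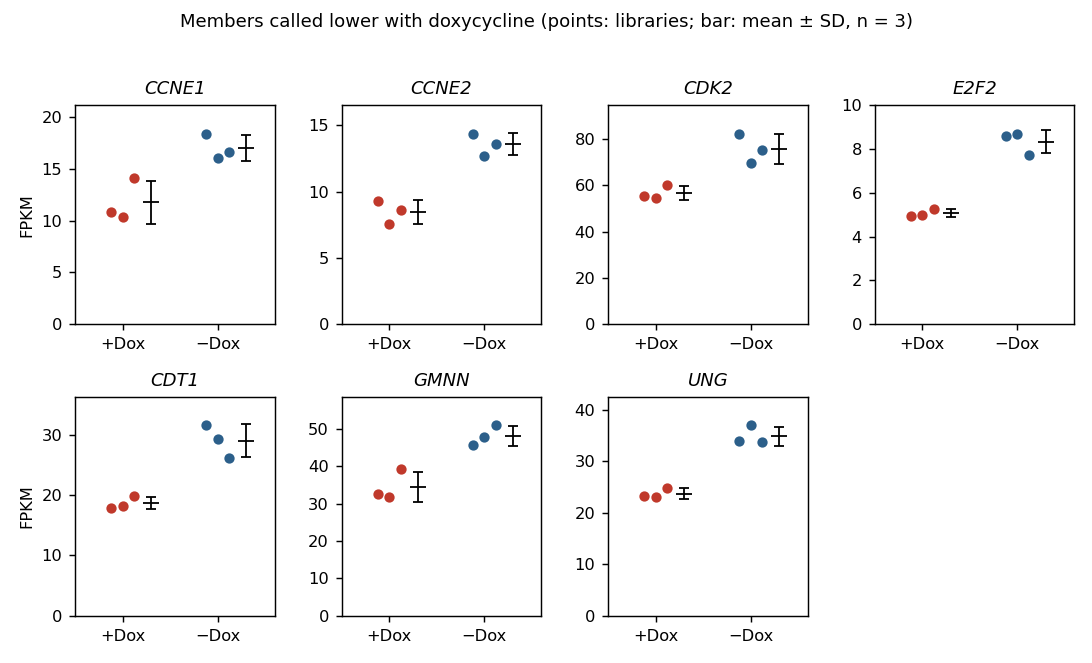
FPKM of the 7 genes called lower (vertical axes, each from 0), with 1 point per library in replicate order and a bar for the mean ± SD (n = 3), +Dox on the left and −Dox on the right of each panel. In every panel the +Dox points lie under the −Dox points, and in CCNE1 and GMNN the highest +Dox point, replicate 3, comes closest (14.1 and 39.2 FPKM).

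Among 11 origin licensing genes the loading factor and its inhibitor fell and the helicase itself did not pass. The 2 that fell were 18.2% of the 11, against 4.77% called lower among all tested genes. CDT1 (ENSG00000167513, chromosome 16, 88803789 to 88809258, plus strand), which brings MCM rings to the origin, had 17.9, 18.2 and 19.8 FPKM in +Dox libraries, against 31.6, 29.3 and 26.1 FPKM in −Dox libraries. Each +Dox library was well under the lowest −Dox library (18.7 ± 1.01 and 29 ± 2.74 FPKM; log2 −0.61, SE 0.09, limma adjusted p = 0.00791), and the call held in each of the 6 leave-out fits, as did that of CCNE2, while both were lost without the filter on low values (0.0562 for CDT1 and 0.0616 for CCNE2). GMNN (ENSG00000112312, chromosome 6, 24774931 to 24786099, plus strand) had 32.4, 31.8 and 39.2 FPKM in +Dox libraries, against 45.6, 47.7 and 50.9 FPKM in −Dox libraries. It was lower in every +Dox library (log2 −0.47, SE 0.10, adjusted p = 0.0231), with +Dox replicate 3 the highest of its group. The ratio of CDT1 to GMNN was 0.553, 0.572 and 0.506 in +Dox libraries and 0.693, 0.615 and 0.513 in −Dox libraries, and these overlapped. The GMNN call was lost without any library other than +Dox replicate 3 (0.0635 and 0.0773 without +Dox replicates 1 and 2, and 0.0526, 0.0902 and 0.0642 without −Dox replicates 1, 2 and 3).

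The other loading factors did not pass. CDC6, the ATPase that loads MCM with CDT1, had 45.0, 49.7 and 51.5 FPKM in +Dox libraries and 48.8, 52.1 and 48.7 FPKM in −Dox libraries (log2 −0.03, 95% interval −0.22 to 0.15). The origin recognition subunit ORC6 had 24.7, 25.9 and 26.7 FPKM in +Dox and 24.9, 27.1 and 25.9 FPKM in −Dox libraries, and ORC1 had 10.7, 10.7 and 10.9 against 12.2, 11.8 and 11.6 FPKM. The ORC1 groups did not overlap, yet the gap was small (log2 −0.13, 95% interval −0.32 to 0.05, adjusted p = 0.335).

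The 6 subunits of the MCM2-7 helicase moved in no shared direction. Summed over the subunits the helicase had 421, 439 and 447 FPKM in +Dox libraries and 471, 444 and 434 FPKM in −Dox libraries, so the groups overlapped. MCM5 was the subunit furthest from 0 and its change was positive, with 44.6, 50.6 and 46.9 FPKM in +Dox libraries against 42.0, 38.1 and 38.0 FPKM in −Dox libraries (log2 0.26, SE 0.08, limma adjusted p = 0.0815). It was called higher after the length and GC correction (0.0141), and its adjusted p lay between 0.0141 and 0.260 over the 15 alternatives. MCM7 had 123, 129.7 and 140.5 FPKM in +Dox libraries and 156, 143 and 139.6 FPKM in −Dox libraries (log2 −0.16, adjusted p = 0.247). The other 4 subunits had log2 changes between −0.06 (MCM4) and 0.00 (MCM2), and the 95% intervals of all 6 subunits lay between −0.35 and 0.45. Levels per transcript length were unequal within the complex, MCM7 averaging 139 FPKM over the 6 libraries, 3.46 times MCM6 at 40.1 FPKM.

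E2F proteins bind short GC-rich elements, and letters of that kind were present in the promoters of genes that fell and of genes that did not pass. The letters TTTCGCGC and TTTGGCGC were searched on both strands of the RefSeq promoter windows (GRCh38.p14, 250 bases before to 50 after each start), in which 42 of the 48 genes had an entry. At least 1 match was found in 14 of the 42 (33.3%), against 382 of all 27305 genes with a window (1.40%). Among the 5 called genes with a window 2 held a match (E2F2 and GMNN), and among the 37 not called 12 did, E2F1, CDC6, MCM2, MCM3, MCM6 and MCM7 among them. CCAAT was found on either strand in 26 of the 42 genes (61.9%), against 39.7% of all genes, and TTTGAA, the core of the cell cycle homology region of G2/M promoters, in 4 of them (UNG, DUT, E2F3 and RRM1, 9.52%), against 18.2% of all genes. The 200 bases before the start are shown, 5′ to 3′ on the strand of the gene with the matches in capitals, for the 2 called genes with a match and for E2F1 and MCM6, which did not pass. A match is a string of letters and was not tested for binding. The stretches lie at chr1:23531234-23531433 (minus strand, E2F2), chr6:24775213-24775412 (plus, GMNN), chr20:33686386-33686585 (minus, E2F1) and chr2:135876444-135876643 (minus, MCM6).
E2F2: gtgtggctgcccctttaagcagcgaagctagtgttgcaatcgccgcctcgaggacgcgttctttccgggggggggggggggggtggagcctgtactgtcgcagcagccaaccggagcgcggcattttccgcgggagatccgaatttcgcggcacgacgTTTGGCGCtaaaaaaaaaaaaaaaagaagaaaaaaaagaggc
GMNN: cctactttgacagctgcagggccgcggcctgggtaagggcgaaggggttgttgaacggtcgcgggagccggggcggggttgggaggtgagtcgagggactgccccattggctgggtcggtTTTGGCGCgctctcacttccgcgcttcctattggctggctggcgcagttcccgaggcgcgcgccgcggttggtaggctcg
E2F1: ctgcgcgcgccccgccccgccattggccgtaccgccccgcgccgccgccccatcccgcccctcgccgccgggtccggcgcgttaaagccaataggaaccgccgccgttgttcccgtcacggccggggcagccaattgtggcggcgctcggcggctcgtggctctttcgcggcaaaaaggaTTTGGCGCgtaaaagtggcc
MCM6: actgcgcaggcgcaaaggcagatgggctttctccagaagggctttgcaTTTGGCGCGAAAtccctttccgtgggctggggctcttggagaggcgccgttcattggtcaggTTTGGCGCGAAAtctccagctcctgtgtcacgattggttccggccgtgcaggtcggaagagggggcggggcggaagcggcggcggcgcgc
Counted from the start site of the window shown, the match begins at −42 in E2F2, −80 in GMNN and −20 in E2F1. GMNN has 2 windows. The stretch shown precedes a start inside the GMNN locus given above, and the other window held no match. MCM6 has 4 matches, at −152, −148, −90 and −86, which form pairs that overlap on opposite strands. MCM6 had 39.0, 38.8 and 41.2 FPKM in +Dox libraries and 38.7, 40.0 and 42.9 FPKM in −Dox libraries (log2 −0.03, 95% interval −0.20 to 0.15). The matches count the 2 searched strings alone, and a relation of their number to the changes was not tested.

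Of the 6 genes that turn a loaded helicase into an active one, limma called 0, and unadjusted p-values under 0.05 numbered 2 for lower and 0 for higher genes. Among all 14475 tested genes they numbered 2073 for lower and 1963 for higher genes. CDC45, the subunit that joins MCM and GINS in the active helicase, had 13.9, 17.6 and 17.0 FPKM in +Dox libraries, against 19.0, 22.8 and 23.5 FPKM in −Dox libraries. The groups did not overlap, and the gene missed the threshold (16.2 ± 1.97 and 21.7 ± 2.42 FPKM; log2 −0.41, SE 0.12, adjusted p = 0.0606). MCM10, which is needed for helicase activation, had 17.6, 17.2 and 17.2 FPKM in +Dox libraries and 19.9, 20.1 and 19.7 FPKM in −Dox libraries. Both of its groups were tight and did not overlap (log2 −0.19, SE 0.08, adjusted p = 0.145).

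The 4 GINS subunits differed among themselves. GINS1 had 19.2, 19.9 and 21.0 FPKM in +Dox libraries and 16.5, 18.1 and 18.0 FPKM in −Dox libraries, without overlap and with a positive change (log2 0.19, SE 0.08, limma adjusted p = 0.186). GINS4 had 20.3, 10.8 and 10.1 FPKM in +Dox libraries and 24.0, 15.3 and 20.6 FPKM in −Dox libraries. It was the most variable of the 48 genes between replicates, with +Dox replicate 1 inside the −Dox range (log2 −0.56, SE 0.27, adjusted p = 0.238, and 0.0283 without +Dox replicate 1), and 21.2% of its exonic bases overlap an unnamed opposite-strand gene with up to 4.19 FPKM. GINS2 and GINS3 both had log2 changes of −0.07 and overlapping groups. Mean levels ran from 11.7 FPKM (GINS3) to 18.8 FPKM (GINS1), a range of 1.61 times.

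**Figure D3:**
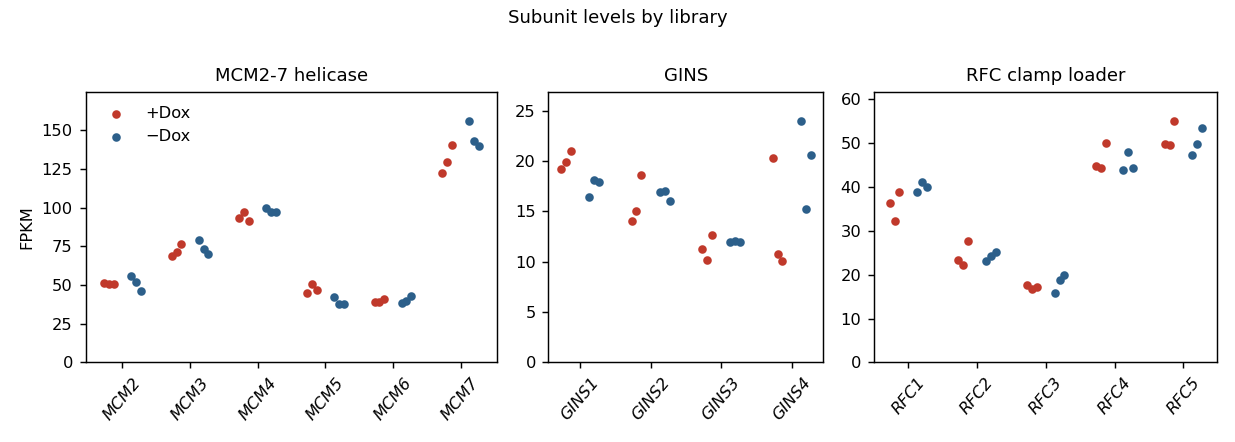
FPKM of the subunits of the MCM2-7 helicase, GINS and the RFC clamp loader (vertical axes from 0), 1 point per library, with +Dox to the left of −Dox for each subunit. MCM5 and GINS1 are the subunits whose +Dox points all lie over their −Dox points, MCM7 stands highest at a mean of 139 FPKM, and the 5 RFC subunits overlap between the groups.

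The 5 polymerase and primase genes all had negative changes, with a median log2 change of −0.29, and limma called 0 of them (unadjusted p under 0.05 in 2, both lower). At that unadjusted threshold 2073 of all 14475 tested genes were lower. PRIM1, the catalytic primase subunit that makes the RNA primer, had 17.3, 17.4 and 18.3 FPKM in +Dox libraries, against 21.1, 21.5 and 22.7 FPKM in −Dox libraries. The groups were well apart relative to their spread (17.7 ± 0.520 and 21.8 ± 0.804 FPKM), and the gene narrowly missed the threshold (log2 −0.29, SE 0.08, adjusted p = 0.0557). POLD1, the catalytic subunit of the polymerase that makes the lagging strand, had 9.38, 11.5 and 13.2 FPKM in +Dox libraries and 15.4, 15.6 and 12.4 FPKM in −Dox libraries, overlapping through replicate 3 of both groups (log2 −0.33, SE 0.13, adjusted p = 0.146). POLE, the leading-strand polymerase, had 30.1, 23.7 and 22.1 FPKM in +Dox and 32.7, 31.7 and 27.1 FPKM in −Dox libraries. Of the polymerase alpha subunits, POLA2 had a log2 change of −0.34 (95% interval −0.71 to 0.02) and the catalytic POLA1 one of −0.02 (adjusted p = 0.204 and 0.939). In POLA2, 35.1% of the exonic bases overlap an unnamed gene on the same strand. That gene had between 0.44 and 2.18 FPKM, against a POLA2 mean of 8.52 FPKM.

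At the clamp and its partners 1 of 9 genes fell (11.1%, against 4.77% called lower among all tested genes), the uracil glycosylase gene. UNG (ENSG00000076248, chromosome 12, 109097597 to 109110992, plus strand), which removes uracil that was built into DNA in place of thymine, had 23.2, 23.1 and 24.9 FPKM in +Dox libraries, against 34.0, 37.0 and 33.7 FPKM in −Dox libraries. Every +Dox library was well under the lowest −Dox library (23.7 ± 1.02 and 34.9 ± 1.85 FPKM; log2 −0.54, SE 0.08), and UNG had the smallest limma adjusted p of the 48 genes (0.00732, and 0.0514 without −Dox replicate 2). PCNA, the sliding clamp, had 218, 232 and 265 FPKM in +Dox libraries and 216, 223 and 232 FPKM in −Dox libraries. Its groups overlapped (log2 0.08, 95% interval −0.12 to 0.28).

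The clamp loader and Okazaki fragment genes did not pass. RFC1, the largest clamp loader subunit, had 36.2, 32.3 and 38.9 FPKM in +Dox libraries and 38.9, 41.1 and 40.0 FPKM in −Dox libraries (log2 −0.16, SE 0.09, limma adjusted p = 0.273), and RFC2 to RFC5 had log2 changes between −0.07 and 0.03. The flap nuclease FEN1 had 80.5, 83.2 and 98.3 FPKM in +Dox and 87.9, 87.9 and 83.2 FPKM in −Dox libraries, and the ligase LIG1 had 18.3, 19.7 and 21.9 against 24.4, 23.2 and 18.1 FPKM. Both overlapped between the groups (log2 0.01 and −0.12). In 8 of the 9 genes of this step +Dox replicate 3 was the highest +Dox library.

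The 5 genes of deoxynucleotide supply were among the most abundant of the 48 and 0 were called by limma, with 0 also at an unadjusted p under 0.05. RRM2, the ribonucleotide reductase subunit that rises in S phase, had 223, 217 and 205 FPKM in +Dox libraries and 244, 256 and 217 FPKM in −Dox libraries. The groups overlapped through −Dox replicate 3 (log2 −0.15, SE 0.09, adjusted p = 0.287). DUT, the dUTPase that keeps uracil out of the nucleotide pool, had 43.8, 41.9 and 47.4 FPKM in +Dox libraries and 50.1, 47.8 and 51.9 FPKM in −Dox libraries, a small gap without overlap (log2 −0.17, SE 0.08, adjusted p = 0.205). The partner subunit RRM1, thymidylate synthase TYMS and thymidine kinase TK1 had log2 changes of 0.01, 0.09 and −0.01. TK1 spanned 125 to 151 FPKM in +Dox and 114 to 154 FPKM in −Dox libraries, so its 95% interval of −0.28 to 0.26 was the widest of the 5. For TYMS, 39.1% of the exonic bases overlap ENOSF1 on the opposite strand, which had between 14.8 and 20.2 FPKM against a TYMS mean of 166 FPKM.

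Of the 3 genes that supply and assemble histones 0 were called by limma, with 1 lower at an unadjusted p under 0.05. Among all 14475 tested genes 2073 were lower at that unadjusted threshold. CHAF1A, the large CAF-1 subunit, had 16.5, 17.7 and 17.2 FPKM in +Dox libraries, against 25.4, 22.7 and 19.9 FPKM in −Dox libraries. The groups did not overlap, and the adjusted p lay at the threshold (17.1 ± 0.613 and 22.7 ± 2.78 FPKM; log2 −0.38, SE 0.10, adjusted p = 0.0501). Its partner CHAF1B had 9.62, 10.4 and 10.7 FPKM in +Dox libraries and 10.9, 10.3 and 10.8 FPKM in −Dox libraries (log2 −0.05, adjusted p = 0.763). SLBP, which binds the stem-loop of histone mRNAs, had 55.4, 54.5 and 64.8 FPKM in +Dox libraries and 63.8, 65.3 and 69.0 FPKM in −Dox libraries, with +Dox replicate 3 above the lowest −Dox library (log2 −0.18, SE 0.09, adjusted p = 0.212).

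The steps differed in their summed level and the +Dox libraries differed among themselves. Summed FPKM of the 9 G1/S regulators was 127, 124 and 137 in +Dox libraries, against 176, 159 and 163 in −Dox libraries, without overlap. The sums of the helicase activation, polymerase and histone supply genes also did not overlap (90.7 to 96.6 in +Dox and 105 to 109.9 in −Dox for helicase activation, 69.3 to 73.8 and 81.5 to 90.5 for polymerases and primase, 81.6 to 92.7 and 98.3 to 100.1 for histone supply). The licensing sums nearly touched (551 to 595 in +Dox and 597 to 634 in −Dox). The clamp group (511 to 598 in +Dox and 531 to 553 in −Dox) and nucleotide supply (629 to 671 and 629 to 683) overlapped. Each sum is led by its most abundant genes, and a difference between steps was not tested. +Dox replicate 3 was the highest +Dox library in 33 of the 48 genes (68.8%), against 46.3% of all tested genes, and its FPKM total was also the highest of the 6 libraries. The part of that total in these values was not tested beyond the fits with libraries scaled to equal totals or upper quartiles.

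**Figure D4:**
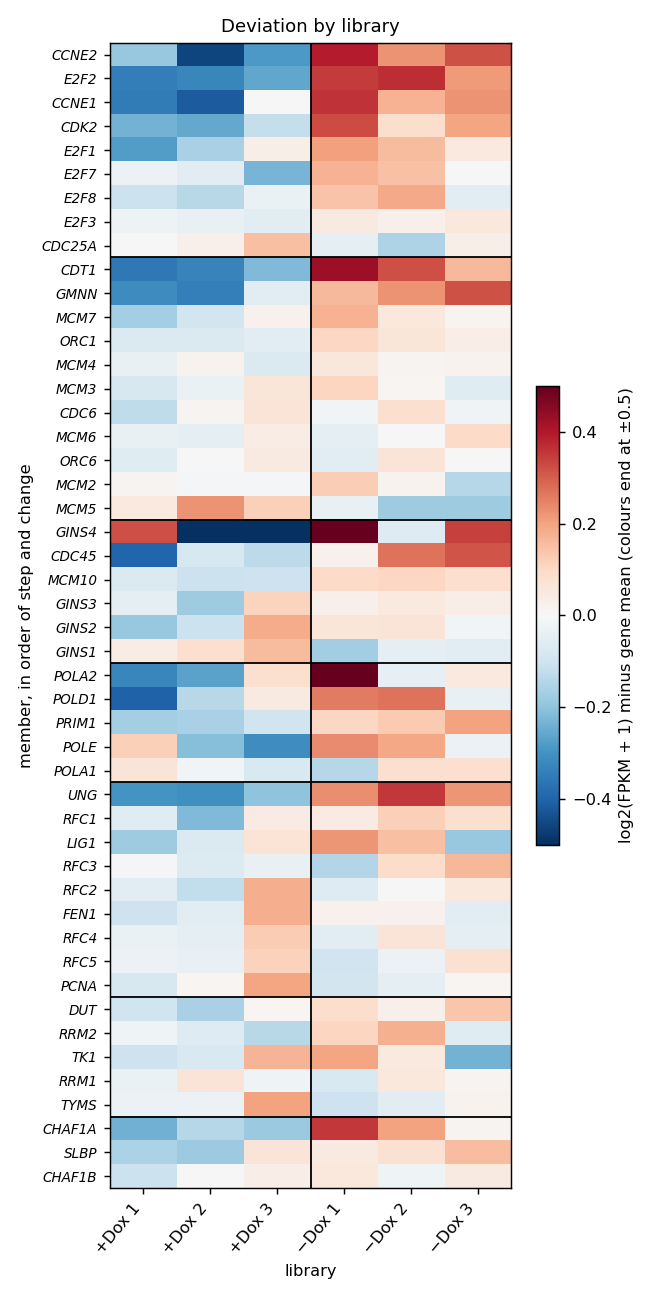
Log2(FPKM + 1) of the 48 genes in each library minus the gene's mean over the 6 libraries (colour, ending at ±0.5), +Dox libraries left of −Dox libraries, ordered by step and change. The G1/S regulators except CDC25A, with CDT1, GMNN and UNG, are mostly blue in +Dox and red in −Dox columns, GINS4 varies within both groups, and +Dox replicate 3 is paler or redder than the other +Dox columns in 33 of the 48 rows.

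Genes that act around these steps were examined as a list of 130 further pathway genes, of which 128 were tested. Of these 8 fell (6.25%, against 4.77% of all tested genes) and 2 rose (against 3.69%), and the median log2 change was −0.08. An unadjusted limma p under 0.05 was reached by 27 lower and 19 higher genes, against 2073 lower and 1963 higher of all 14475 tested genes. RBL2, the pocket protein p130 that represses E2F targets in resting cells, had 6.14, 5.40 and 5.10 FPKM in +Dox libraries, against 10.5, 10.3 and 11.1 FPKM in −Dox libraries. Its +Dox values were all far under the −Dox values (log2 −0.83, SE 0.10, adjusted p = 0.00288). CDKN1B, which encodes the cyclin E and CDK2 inhibitor p27, had 22.9, 23.2 and 23.8 FPKM in +Dox libraries, against 16.8, 16.3 and 17.2 FPKM in −Dox libraries. It rose with very little spread in either group (log2 0.45, SE 0.08, adjusted p = 0.0129, and 0.0519 and 0.0766 without +Dox replicate 2 and −Dox replicate 2). CDKN2D, the CDK4 and CDK6 inhibitor p19, had 6.74, 8.48 and 11.9 FPKM in +Dox libraries, against 16.2, 19.6 and 14.8 FPKM in −Dox libraries (log2 −0.85, SE 0.18, adjusted p = 0.0236, and 0.0778, 0.0643 and 0.0909 without +Dox replicate 2 and −Dox replicates 1 and 2). Inhibitors of the G1 kinases changed in both directions.

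The histone chaperone ASF1B had 29.3, 33.0 and 36.4 FPKM in +Dox libraries, against 55.7, 54.5 and 49.6 FPKM in −Dox libraries (log2 −0.68, SE 0.10, limma adjusted p = 0.00607), and RBBP4, the histone-binding subunit that CAF-1 shares with other complexes, had 131, 138 and 133 against 165, 181 and 182 FPKM (log2 −0.39, SE 0.08, adjusted p = 0.0195). Both were lower in every +Dox library. The CDK phosphatase gene CDC25B fell as well (37.7, 37.4 and 41.9 FPKM in +Dox libraries, against 68.7, 60.8 and 55.8 FPKM in −Dox libraries; log2 −0.65, SE 0.10, adjusted p = 0.00705). RBX1, the RING subunit of cullin ubiquitin ligases such as the one that degrades CDT1, rose (39.2, 40.5 and 49.5 FPKM in +Dox libraries, against 33.2, 30.2 and 30.9 FPKM in −Dox libraries; log2 0.44, SE 0.10, adjusted p = 0.0322). The origin firing factor TICRR and the origin recognition subunit ORC3 fell too (log2 −0.37 and −0.35, adjusted p = 0.0389 and 0.0491), TICRR losing its call in each of the 6 leave-out fits (up to 0.142) and ORC3 in each except that without +Dox replicate 3 (up to 0.167). The RBBP4 call was lost without +Dox replicates 1 and 2 and −Dox replicates 2 and 3 (0.0557, 0.0591, 0.103 and 0.0557), and that of RBX1 without +Dox replicate 2 and −Dox replicates 1, 2 and 3 (0.0657, 0.0629, 0.124 and 0.0794).

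Other genes of the same switch did not pass. CDKN1A, which encodes the CDK inhibitor p21, was at 136 ± 10.1 FPKM in +Dox and 143 ± 8.81 FPKM in −Dox libraries (SD, n = 3 each; log2 −0.08, limma adjusted p = 0.597), and the retinoblastoma gene RB1 was at 17.8 ± 1.31 and 20.4 ± 1.89 FPKM (log2 −0.19, 0.252). CCND1, the cyclin D1 gene, was at 101 ± 1.69 FPKM in +Dox and 85.4 ± 0.694 FPKM in −Dox libraries, without overlap and just short of the threshold (log2 0.25, SE 0.07, adjusted p = 0.0571). CCNA2, the S phase and G2 cyclin, was at 59.6 ± 2.68 and 52.3 ± 3.05 FPKM (log2 0.19, 0.164), also without overlap, and the repressive E2F4 at 32.4 ± 1.90 and 33.4 ± 5.47 FPKM (log2 −0.03, 0.897).

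**Figure D5:**
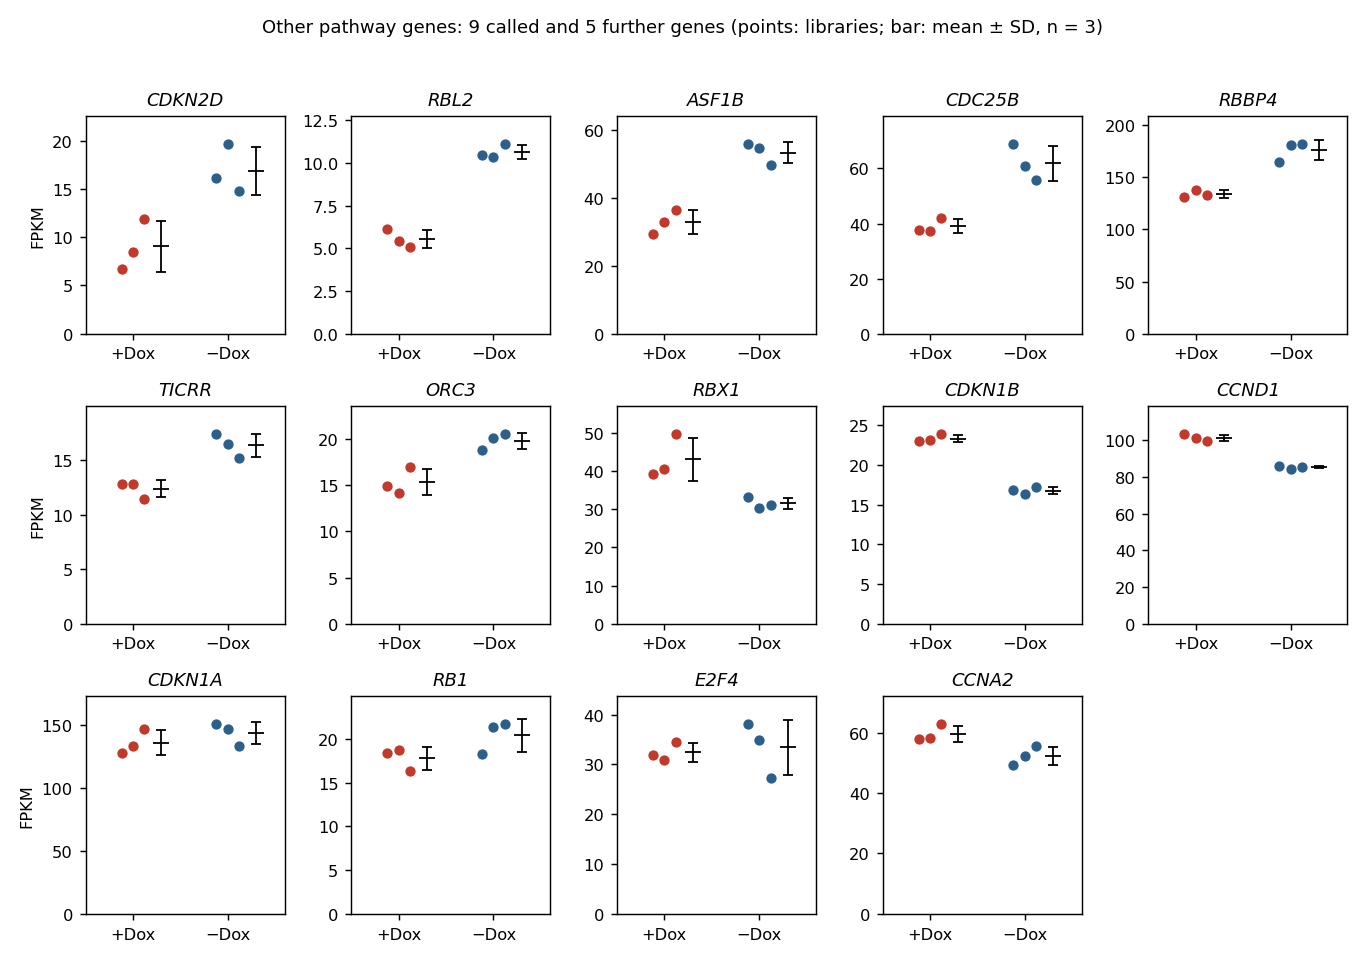
FPKM of 9 further pathway genes that were called and of CCND1, CDKN1A, RB1, E2F4 and CCNA2 (vertical axes from 0), with 1 point per library in replicate order and a bar for the mean ± SD (n = 3), +Dox left of −Dox. The first 7 panels have +Dox points under all −Dox points, RBX1 and CDKN1B have them over, and among the uncalled genes CCND1 and CCNA2 have them over.

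General proliferation genes were measured beside these. Of 15 tested genes of proliferation and mitosis 2 rose, PLK1, a mitotic kinase (79.6 ± 4.73 FPKM in +Dox and 61.7 ± 5.04 FPKM in −Dox libraries; log2 0.36, limma adjusted p = 0.036), and CCNB1, the mitotic cyclin B1 (184 ± 11.6 and 147 ± 4.31 FPKM; log2 0.32, 0.0377), and limma called 0 lower. Of all 14475 tested genes 3.69% were called higher and 4.77% lower. Unadjusted p-values under 0.05 belonged to 6 higher genes and 1 lower gene, against 1963 higher and 2073 lower among all tested genes. In 7 of the 15 (46.7%) the +Dox values all lay over the −Dox values, against 17.0% of all tested genes. They all lay under them in 1 (6.67%, against 17.5%). +Dox replicate 3 was the highest +Dox library in 11 of the 15 (73.3%, against 46.3%). MKI67, a marker of cycling cells, was at 94.3 ± 4.16 FPKM in +Dox and 94.6 ± 5.05 FPKM in −Dox libraries (log2 0.00, 95% interval −0.18 to 0.17). None of the 6 leave-out fits kept the PLK1 call (largest adjusted p 0.122), and that of CCNB1 was kept by the fit without +Dox replicate 3 alone (largest 0.126). For the S phase genes that fell, fewer cells in late G1 and S phase and less of their RNA per cell cannot be told apart in bulk libraries.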

How the data were processed

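Values of 60643 genes in 6 RNA sequencing libraries were used. The authors deposited them as FPKM, scaled for transcript length and library size before deposit; the header names no unit, and this follows from the values (not whole, unequal totals, steps inverse to transcript length). TRIzol RNA was used, per the labels' protocols. The aligners and quantifiers STAR, BWA, Bowtie, kallisto, RSEM and Cufflinks appear without roles or versions, per the submitters' processing notes, with the build hg19. The loci were instead those of GRCh38: of 39331 versioned identifiers in GENCODE 29, 39321 had its locus once starts were counted from 1. No source used here gives the strand setting of the counting.

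The tested set was the 14475 genes that reached 1 FPKM in 3 or more libraries. The test was limma 3.58.1 (R 4.3.3) on log2(FPKM + 1) (trended, robust empirical Bayes, group as the only term, two-sided p-values adjusted by Benjamini-Hochberg over all tested genes, threshold 0.05). For CAPG an exact permutation test was added. The planned count test did not apply to FPKM. The fit was tested on simulated data, 5 simulations with 200 changed genes each among 14475. It recovered 4.8% of 1.25-fold, 44% of 1.5-fold, 82.4% of 2-fold and 97.6% of 4-fold changes, and 4.98% of its calls were false. A gene that did not pass may therefore still have changed, by 1.5-fold or even 2-fold as well as by less. Depth was estimated from the steps between low values of 4376 single-exon genes longer than 1000 bases, and 3 fragments per kilobase then equal 0.138 to 0.176 FPKM, a floor for counting error alone. FPKM is a share of a library, so an abundant class lowers the other values. Copies named as pseudogenes had at most 3.01% of a member's level. Promoter windows came from RefSeq, and exon overlaps, length and GC content from GENCODE 29.

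The 48 genes were those of the stated symbols. Named in full were genes past the threshold, the 2 smallest p-values in steps with fewer than 2 such genes, up to 8 called genes of the further pathway list, and CDKN1A, RB1, CCND1, E2F4 and CCNA2. The result of 1 gene covered by this choice is not reported here. Further genes were named after their values were seen. The members and lists were chosen with earlier results of these data known. The 15 alternatives covered the pseudocount, the filter, the scaling, the replicate number as a block, length and GC content, the limma settings and each library left out.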

Additional observations from a re-analysis of the deposited data

How the results depend on the processing

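The 7 members called lower kept a negative change in all 15 alternatives. Of the 41 members not called, 28 kept their sign in all 15, 13 changed it in at least 1, and 7 were called in at least 1. Without the filter on low values, 100 of all genes were called lower and 53 higher, 2 members lower (E2F2 and UNG), and 2 further pathway genes lower and 1 higher. Of 14475 tested genes 691 were called lower with the minimum of 1 FPKM, and 639 of 10085 with a minimum of 5 FPKM in 3 libraries. With the latter, 10 members were called lower, the 7 with CDC45, PRIM1 and CHAF1A. In that fit 4 further pathway genes were called higher. Equal FPKM totals moved the median of all tested genes to −0.05, and the members' median change was −0.18. In that fit 890 of all genes, 15 further pathway genes and the same 10 members were called lower. Equal upper quartiles gave 854 of all genes lower and 9 members lower, the same 10 without CDC45. Over the 15 alternatives CHAF1A was called in 6, PRIM1 in 5 and CDC45 in 4. After the length and GC correction, 1245 of all genes were called lower and 1357 higher, 12 members lower and 1 higher (MCM5), and 19 further pathway genes lower and 14 higher. With the same correction and the replicate block, 819 of all genes were called lower and 883 higher, 11 members lower and 1 higher, and 6 further pathway genes higher. Without the trended and robust settings of limma, 354 of all genes and 1 further pathway gene were called higher, and CCNE1 missed the threshold (0.0540). Leaving out 1 library gave between 147 and 588 genes lower and between 76 and 412 higher, between 2 and 7 members lower, and between 4 and 8 further pathway genes lower and 0 and 3 higher. The cause of these differences was not tested, beyond the fewer libraries in the last of them.

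No pairing of the libraries by replicate number was seen, but 3 libraries a group cannot decide whether they were paired. The deviations of same-numbered libraries correlated at −0.04, 0.01 and −0.02, and no +Dox library correlated best with the −Dox library of its own number. With the replicate block, 142 of all genes were called lower and 69 higher, 2 members lower (CCNE2 and UNG), and 4 further pathway genes lower and 0 higher. All calls rest on 3 libraries a group, and the lowest member value was 4.92 FPKM, against 0.138 to 0.176 FPKM for 3 fragments per kilobase. How depth affects the calls was not tested.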

Other observations

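Most replication-dependent histone genes were near 0 in this table. The part of library preparation in these levels was not tested. Of 66 such genes 14 were listed at 0 in all 6 libraries and 39 stayed under 1 FPKM in every library. The highest value of any of them was 47.2 FPKM.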
